A study of Mus musculus with 2 samples.

Results

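The SOX, FOX, GATA and TBX genes encode 4 families of DNA-binding transcription factors that direct cell fate in the early embryo. They were taken as every gene of the deposited table whose symbol is Sox, Fox with a letter, Gata or Tbx followed by its number, with Sox2 and Tbx3 left out, which gave 80 of 50508 genes: 18 SOX, 44 FOX, 6 GATA and 12 TBX genes. Libraries came from E14, mouse embryonic stem cells of 129/Ola origin, at passages 15 to 18. The cells grew on gelatin in 15% serum and 1000 U/ml leukemia inhibitory factor (LIF), a cytokine that keeps such cells undifferentiated. They were harvested 72 h after transfection with a Mettl8 siRNA or a scramble siRNA. Each group was 1 library, so no value has a replicate error and no test between the groups was made; the series record speaks of triplicates, and whether a library pools cultures is not given.

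SOX factors bind DNA through an HMG box, FOX factors through a forkhead domain, GATA factors through zinc fingers and TBX factors through a T-box. Members of a family bind similar DNA letters, and which paralog a cell makes differs between lineages. In the mouse embryo, GATA4, GATA6 and SOX17 mark primitive endoderm, FOXA2 and SOX17 definitive endoderm, TBX6 presomitic mesoderm, SOX1 the neural plate and SOX10 the neural crest. FOXD3 and SOX15 are known from undifferentiated stem cells.

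Levels are FPKM, reads per kilobase of gene scaled to the size of the library. A gene is called expressed at a mean of at least 1 FPKM over both libraries, low from 0.1 to below 1, and near zero below 0.1. Rebuilt from the FPKM steps, the table held 21.4 M reads in the library labelled Mettl8 siRNA and 22.2 M in the library labelled scramble siRNA. Mettl8, the targeted gene, had 100.3 FPKM in the library labelled Mettl8 siRNA, against 0.67 FPKM in the library labelled scramble siRNA, which goes against the label, so every direction below is between labelled libraries. All 7 stem cell markers were expressed, and none of the 9 fibroblast and feeder, 6 trophoblast or 5 blood markers reached a mean of 1 FPKM.

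The stem cell libraries contained a few SOX and FOX genes at moderate levels and lower levels of GATA and TBX genes. Of the 80 genes, 21 were expressed (26.2%, as for all genes of the table but below the 46.4% of protein-coding genes). Another 24 were low (30%, against 18.5% of protein-coding and 20.5% of all genes). The other 35 were near zero (43.8%, between the 35.2% of protein-coding and 53.3% of all genes). The expressed genes were 6 of 18 SOX and 15 of 44 FOX genes, and 0 of 6 GATA and 0 of 12 TBX genes. These counts rest on the limit of 1 FPKM: at 1 TPM over protein-coding genes, a lower limit, 12 SOX, 22 FOX, 4 GATA (Gata1 to Gata4) and 2 TBX genes (Tbx4 and Tbx6) pass. The 21 genes at a mean of at least 1 FPKM carried 91.7% of the summed FPKM of the 80 genes in the library labelled Mettl8 siRNA and 92.3% in the library labelled scramble siRNA. The left-out members differed: Sox2, the SOX gene of the pluripotency core, had 85.8 and 94.8 FPKM in the libraries labelled Mettl8 siRNA and scramble siRNA, and Tbx3, a naive state factor, had 4.34 and 4.86 FPKM. In bulk RNA, a low level in every cell and a higher level in a few cells cannot be told apart.

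**Figure D1:**
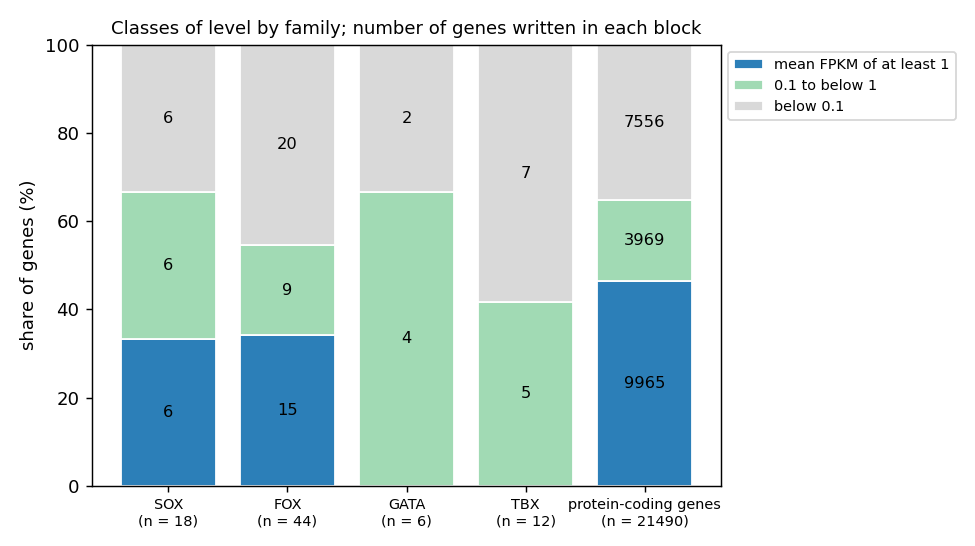
Share of genes in each class of level, by family and for all protein-coding genes, as stacked bars with the number of genes in each block. The GATA and TBX bars hold no gene at a mean of 1 FPKM or more, while 6 SOX and 15 FOX genes reach it.

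RefSeq promoter windows (GRCm38.p6, 250 bases before to 50 after a RefSeq start of the gene) were found for 53 of the 80 genes, 67 windows in all. CpG dinucleotides are rare in most of the genome and dense in CpG islands, where the ratio of observed to expected CpG exceeds 0.6. The 250 bases before the start are shown for paralog pairs in which 1 gene was expressed and the other near zero, Sox21 with Sox14 (both of the SOXB2 group) and Foxd3 with Foxd2, and for Sox15, the highest of the 18 SOX genes. They read 5′ to 3′ on the gene's strand, with CpG in capitals.
Sox21, chr14:118237031-118237280, minus strand: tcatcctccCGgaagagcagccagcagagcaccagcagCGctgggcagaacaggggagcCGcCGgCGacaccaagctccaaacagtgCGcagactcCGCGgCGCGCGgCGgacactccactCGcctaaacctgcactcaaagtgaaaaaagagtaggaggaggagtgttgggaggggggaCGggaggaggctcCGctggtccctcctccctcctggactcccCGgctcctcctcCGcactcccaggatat
Sox14, chr9:99876171-99876420, minus strand: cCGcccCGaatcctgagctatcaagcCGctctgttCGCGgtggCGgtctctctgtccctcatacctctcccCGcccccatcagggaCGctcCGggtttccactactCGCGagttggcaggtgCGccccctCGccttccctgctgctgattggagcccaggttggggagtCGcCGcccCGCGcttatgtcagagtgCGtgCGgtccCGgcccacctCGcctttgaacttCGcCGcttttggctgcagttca
Foxd3, chr4:99656049-99656298, plus strand: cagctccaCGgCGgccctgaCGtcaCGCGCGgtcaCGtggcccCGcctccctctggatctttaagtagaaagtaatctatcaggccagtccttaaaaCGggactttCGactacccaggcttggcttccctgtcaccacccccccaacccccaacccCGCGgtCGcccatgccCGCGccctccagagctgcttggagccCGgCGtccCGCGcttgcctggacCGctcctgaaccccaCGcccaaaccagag
Foxd2, chr4:114908899-114909148, minus strand: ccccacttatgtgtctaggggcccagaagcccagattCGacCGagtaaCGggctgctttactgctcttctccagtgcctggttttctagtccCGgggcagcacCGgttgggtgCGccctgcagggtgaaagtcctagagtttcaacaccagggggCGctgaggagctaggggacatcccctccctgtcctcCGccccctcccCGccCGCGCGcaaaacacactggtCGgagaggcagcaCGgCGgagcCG
Sox15, chr11:69654787-69655036, plus strand: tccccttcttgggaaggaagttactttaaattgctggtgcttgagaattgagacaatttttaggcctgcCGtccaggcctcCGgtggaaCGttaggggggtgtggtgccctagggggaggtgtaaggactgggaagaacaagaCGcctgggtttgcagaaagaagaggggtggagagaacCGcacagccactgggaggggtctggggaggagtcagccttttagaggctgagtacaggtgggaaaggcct
In these stretches of 250 bases the expressed Sox21 has 17 CpG and its near-zero paralog Sox14 has 23. The expressed Foxd3 has 21 and the near-zero Foxd2 has 16, whereas Sox15 has 5. The Sox15 stretch ends at 69655036, while the gene's position in the GENCODE M21 annotation begins downstream, at 69655314. Its CpG values therefore describe the RefSeq start only.

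CpG-rich promoters were found among near-zero members too. A window with a CpG ratio above 0.6 was present for 14 of the 21 near-zero members with a promoter (66.7%), 10 of 16 low members and 13 of 16 expressed members (81.2%). Among all protein-coding genes with a promoter window, the share was 13.6% of near-zero genes, 49.0% of low genes and 81.7% of expressed genes. Near-zero genes with CpG-poor windows included Tbx22 (0.052 to 0.11 over 3 windows), a palate factor, and Sox5 (0.26). The Sox5 window, at 143947057 to 143947356 of chromosome 6, lies inside the gene, whose annotated 5′ end is at 144781977. Its ratio does not describe the promoter at that end. The expressed genes also spanned a wide range, with ratios of 0.24 for Sox15 and 1.28 for Foxk2. These are counts over the genes, with no test.

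**Figure D2:**
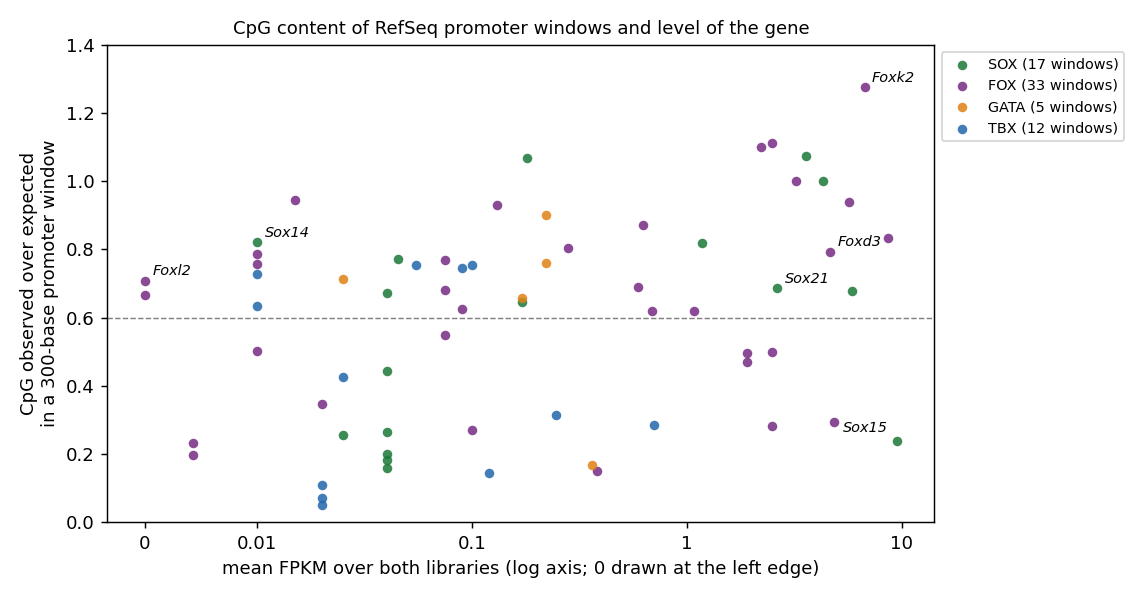
Observed over expected CpG in each 300-base promoter window (vertical axis) against the mean FPKM of its gene (horizontal log axis), colored by family; the dashed line marks 0.6. Windows above the line occur at every level, and Sox15, at the right, lies at 0.24.

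Short motifs were searched on both strands of the 300-base windows. The STAT motif TTCNNNGAA occurred in 5 of 67 windows (7.46%, against 8.30% of all 32851 windows), in the expressed Sox13, Foxn3 and Foxp3 and the near-zero Sox6. The octamer ATGCAAAT, bound by OCT4, occurred in 2 of 67 windows (2.99%, against 1.74% of all), those of Sox12 and Sox1. The SOX letters AACAAT were in 3 windows (4.48%, against 10.7%), the FOX letters TGTTTAC in 2 (2.99%, against 3.65%) and the GATA letters AGATAA in 5 (7.46%, against 11.2%). The T-box letters AGGTGTGA were in 0 of 67 windows, against 1.28% of all windows. CCAAT was in 29 windows (43.3%, against 37.4%) and TATAAA in 7 (10.4%, against 13.6%). A match describes letters only, and some of these motifs can overlap each other.

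Among the SOX genes, the SOXC group was expressed whole. SOXC factors act in progenitors of neurons and mesenchyme. Sox4 had 5.80 FPKM in the library labelled Mettl8 siRNA and 5.94 FPKM in the library labelled scramble siRNA, while Sox12 had 3.58 and 3.59 FPKM. Sox11 had 1.32 FPKM (1.18 to 1.48, exact Poisson interval at 95%) in the library labelled Mettl8 siRNA and 1.03 FPKM (0.906 to 1.17) in the library labelled scramble siRNA, the highest ratio of the 21 expressed members at 1.28 (1.08 to 1.52, exact Clopper-Pearson interval). Sox11 (ENSMUSG00000063632.6) lies on the minus strand of chromosome 12, at 27334264 to 27342574 of GRCm38. Both intervals cover counting error only. Of the exons of Sox4, 54.6% lie opposite the exons of the noncoding gene Gm26735, which had 6.30 and 6.19 FPKM. With the strand setting unknown, the levels of this pair cannot be told apart, and the same holds for the 18.8% of Sox21 that overlaps Gm4675.

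Sox15, the only SOXG gene, had the highest SOX level apart from Sox2. It was 8.89 FPKM in the library labelled Mettl8 siRNA, against 10.04 FPKM in the library labelled scramble siRNA, a ratio of 0.886 (0.734 to 1.07). Sox15 (ENSMUSG00000041287.5; chromosome 11, plus strand, 69655314 to 69656727) shares 31 exon bases with the oppositely oriented Mpdu1, which had 22.1 and 20.9 FPKM. Sox13, a SOXD gene, had 4.21 and 4.38 FPKM, while its SOXD paralogs Sox5 and Sox6, which act in cartilage, were near zero. Sox21, a repressor of the SOXB2 group, had 2.76 and 2.50 FPKM, and its paralog Sox14 had 0.02 and 0 FPKM. The SOXB1 genes Sox1 and Sox3, which overlap with Sox2 in neural cells, were both low, Sox1 at 0.19 and 0.17 FPKM and Sox3 at 0.28 and 0.34 FPKM.

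Lineage genes of the SOXE and SOXF groups were low or near zero. Sox10, a neural crest factor, had 0.28 and 0.26 FPKM in the libraries labelled Mettl8 siRNA and scramble siRNA, Sox8 had 0.17 FPKM in both, and Sox9, of cartilage and testis, had 0.02 and 0.01 FPKM. Sox17, of endoderm, had 0.03 and 0.01 FPKM on 4 reads and 1 read. Its SOXF paralogs, which act in blood vessels, were somewhat higher and went opposite ways: Sox7 had 0.31 and 0.19 FPKM (28 and 18 reads), and Sox18 had 0.11 and 0.24 FPKM (5 and 11 reads). The counting intervals of both ratios include 1, at 0.85 to 3.06 for Sox7 and 0.127 to 1.45 for Sox18. Sox30, a gene of male germ cells, had 0.02 and 0.07 FPKM.

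**Figure D3:**
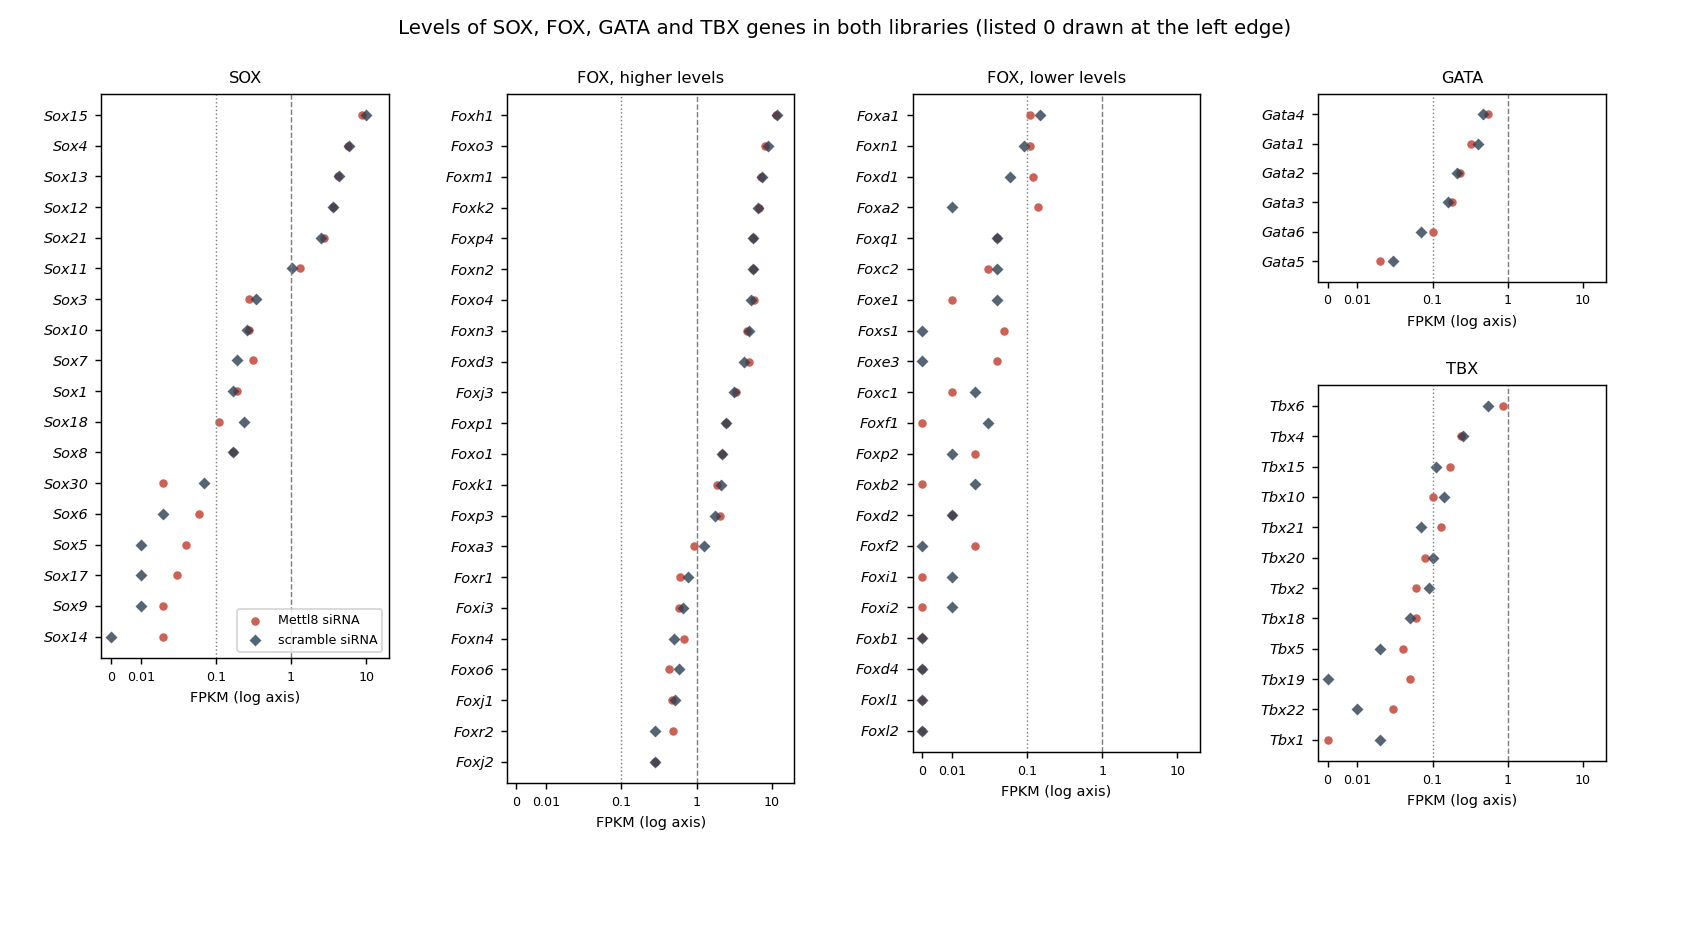
FPKM of the SOX, FOX, GATA and TBX genes in the library labelled Mettl8 siRNA (red circles) and the library labelled scramble siRNA (dark diamonds) on a log axis, with 0 drawn at the left edge; dashed and dotted lines mark 1 and 0.1 FPKM. The markers of expressed genes nearly coincide, with Foxh1 at 11.3 and 11.7 FPKM, and the markers separate among genes with a handful of reads.

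Foxh1 had the highest level of the 80 genes. FOXH1 is the DNA-binding partner of SMAD2 and SMAD3 in NODAL signalling. Its level was 11.3 FPKM (10.2 to 12.5) in the library labelled Mettl8 siRNA and 11.7 FPKM (10.7 to 12.9) in the library labelled scramble siRNA, rank 2473 of 21490 protein-coding genes. Foxh1 (ENSMUSG00000033837.5) lies on the minus strand of chromosome 15, at 76668225 to 76669948. Of 9 SMAD partners and targets, 6 were expressed, 1 higher and 5 lower in the library labelled Mettl8 siRNA, and their median difference in log2(FPKM + 1) was -0.087, or -0.010 with each library rescaled to the same FPKM sum. Of all expressed genes of the table, 54.1% were higher and 45% lower. Their median was 0.013, or 0.089 under the same rescaling, so the list's median lay below it in both cases. In the list, the differences of largest size were -0.21 for the NODAL inhibitor Lefty1 (16.9 and 19.6 FPKM) and -0.13 for Smad4 (9.0 and 9.96 FPKM). The NODAL targets Gsc and Mixl1 were low, at 0.21 FPKM or less in both libraries.

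The FOXO genes, effectors of insulin and PI3K signalling that AKT keeps out of the nucleus, were expressed except Foxo6, a brain paralog. Foxo3 had 8.17 FPKM (7.79 to 8.57) in the library labelled Mettl8 siRNA and 9.0 FPKM (8.60 to 9.41) in the library labelled scramble siRNA, a ratio of 0.908 (0.851 to 0.970). Foxo4 had 5.85 and 5.23 FPKM, a ratio of 1.12 (0.991 to 1.26), and Foxo1 had 2.19 and 2.21 FPKM. Foxo3 was lower with an interval that leaves out 1. With each library rescaled to the same FPKM sum, its ratio is 0.969 (0.908 to 1.03) and that of Foxo4 1.19 (1.06 to 1.35). That sum covers all genes, at 584527 FPKM in the library labelled Mettl8 siRNA and 623735 FPKM in the library labelled scramble siRNA. Over protein-coding genes alone it is 144041 and 142874 FPKM, a difference in the opposite direction. The summed level of Foxo1, Foxo3, Foxo4 and Foxo6 was 16.6 FPKM in the library labelled Mettl8 siRNA and 17.0 FPKM in the library labelled scramble siRNA. Foxo6 had 0.43 and 0.59 FPKM. Foxo3 (ENSMUSG00000048756.11) lies on chromosome 10, minus strand, at 42181841 to 42276755. Of 22 regulators and targets of FOXO factors, 20 were expressed, 9 higher and 10 lower. Their median was -0.0025, or 0.077 when rescaled to the same FPKM sum, beside 0.013 and 0.089 over all expressed genes. These values include Pdk1 (16.1 and 16.2 FPKM, counted as lower), which encodes a pyruvate dehydrogenase kinase. The kinase that acts on AKT is encoded by Pdpk1, also in the list. The largest differences were those of the deacetylase gene Sirt1 at 0.23 (20.3 and 17.1 FPKM) and Ccng2 at -0.14 (2.4 and 2.75 FPKM).

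Foxm1, which drives genes of the G2 and M phases, had 7.23 FPKM in the library labelled Mettl8 siRNA and 7.36 FPKM in the library labelled scramble siRNA, a ratio of 0.982 (0.906 to 1.07). All 17 of its listed targets were expressed, 13 higher and 4 lower (all expressed genes, 54.1% and 45%), median 0.019 beside a median of 0.013 over all expressed genes of the table. Rescaled to the same FPKM sum, these medians are 0.11 and 0.089, and with the median ratio of protein-coding genes set to 0 the list's is 0.0046. Skp2 had 1.68 and 1.41 FPKM and Cdc25b had 5.73 and 6.39 FPKM, the largest differences in that list. Both FOXK genes, whose products bind the BAP1 and SIN3A complexes, were expressed. Foxk2 had 6.80 and 6.65 FPKM and Foxk1 had 1.89 and 2.10 FPKM. Of 6 FOXK partners, 3 were higher and 3 lower, median -0.0086 (0.078 when rescaled to the same FPKM sum), Sin3a at -0.13 and Hcfc1 at 0.10.

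Other widely used FOX genes were expressed in both libraries, and their ratios as deposited had intervals that include 1. Foxn2 had 5.72 FPKM in the library labelled Mettl8 siRNA and 5.56 FPKM in the library labelled scramble siRNA, while Foxn3, known as a checkpoint suppressor, had 4.68 and 4.98 FPKM. Of the FOXP genes, which bind DNA as dimers, Foxp4 had 5.60 and 5.71 FPKM and Foxp1 had 2.50 and 2.49 FPKM, while Foxp2, a gene of brain and lung, had 0.02 and 0.01 FPKM. Foxj3 had 3.33 and 3.13 FPKM, whereas its paralogs were low, Foxj2 at 0.28 FPKM in both libraries and Foxj1, the gene of motile cilia, at 0.47 and 0.52 FPKM. When each library is rescaled to the same FPKM sum, the intervals of Foxn2 (1.01 to 1.19) and Foxj3 (1.04 to 1.24) leave out 1. That rescaling raises the ratio of every gene by the same factor, and the median difference of expressed protein-coding genes goes from 0.013 to 0.090. The rescaled intervals of Foxo4, Foxd3, Foxp3 and Tbx6 hold the same rise, so none of them sets a gene apart from the others.

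Foxd3, a factor of undifferentiated stem cells and of the neural crest, was the only expressed FOXD gene. It had 5.03 FPKM (4.50 to 5.60) in the library labelled Mettl8 siRNA and 4.28 FPKM (3.79 to 4.81) in the library labelled scramble siRNA, a ratio of 1.18 (0.999 to 1.38), with an interval of 1.07 to 1.48 when each library is rescaled to the same FPKM sum. Foxd3 (ENSMUSG00000067261.4) lies on chromosome 4, plus strand, at 99656299 to 99658622. Foxd1, Foxd2 and Foxd4 were near zero, at 0.12 FPKM or less in both libraries.

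A pair of expressed FOX genes belong to other tissues. Foxa3, a liver factor, had 0.92 FPKM (0.685 to 1.2) in the library labelled Mettl8 siRNA and 1.24 FPKM (0.972 to 1.56) in the library labelled scramble siRNA, on 52 and 72 reads. Its ratio of 0.739 (0.507 to 1.07) was the lowest of the expressed members. Foxp3, the factor of regulatory T cells, had 2.05 and 1.74 FPKM, a ratio of 1.17 (0.965 to 1.43), whose interval is 1.03 to 1.52 when each library is rescaled to the same FPKM sum. Foxp3 (chromosome X, plus strand, 7573644 to 7595245) shares exon bases with the oppositely oriented genes Ccdc22 (590 bases, 5.52 and 5.12 FPKM), Gm36995 (373 bases, 3.47 and 3.22 FPKM) and Ppp1r3f (266 bases, 0.54 and 0.61 FPKM). It also shares 853 bases, 18.6% of its exons, with Flicr, which lies on the same strand and has no listed level. Its reads therefore cannot be assigned to Foxp3 alone, whatever the strand setting. The blood marker Ptprc and others of that list did not reach a mean of 1 FPKM.

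**Figure D4:**
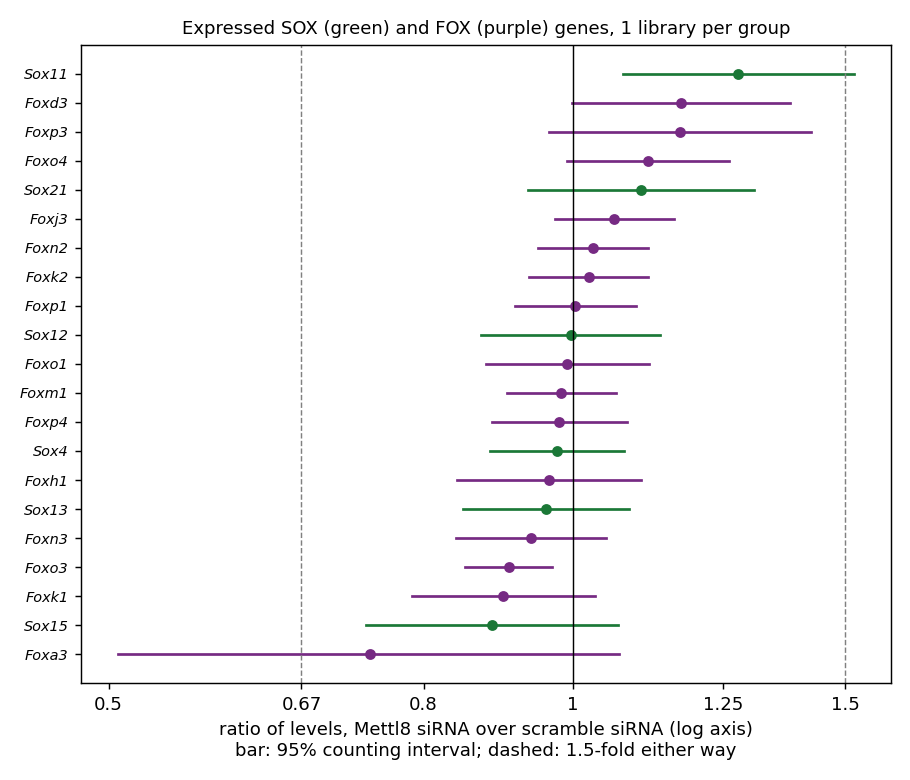
Ratio of levels in the library labelled Mettl8 siRNA over the library labelled scramble siRNA for the 21 expressed genes, on a log axis, with 95% counting intervals as bars and dashed lines at 1.5-fold either way. Ratios run between 0.739 for Foxa3 and 1.28 for Sox11, and the intervals of Sox11 and Foxo3 leave out 1. The share of all genes with such an interval was not counted.

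The expressed SOX and FOX genes were close between the libraries. None of the 21 was 1.5-fold apart in FPKM + 1, nor 2-fold. At a mean of at least 1 FPKM, 0.1% of 9965 protein-coding genes and 2.11% of all genes were 1.5-fold apart, and 0.0201% and 0.642% were 2-fold apart. With a share that small in the background, 0 of 21 says little about the members. Of the 21, 9 were higher and 12 lower in the library labelled Mettl8 siRNA, where 54.5% of protein-coding genes (54.1% of all genes) were higher and 44.5% (45%) lower. With each library rescaled to the same FPKM sum, 17 were higher and 4 lower. Differences lay between -0.22 for Foxa3 and 0.19 for Sox11, with a median of -0.0090, beside 0.013 over protein-coding genes. At a ratio of 1.2-fold, a size chosen after the values were seen, Sox11 was higher (1 of 21, against 3.07% of protein-coding and 7.39% of all genes) and Foxa3 lower (1 of 21, against 4.14% and 8.31%).

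**Figure D5:**
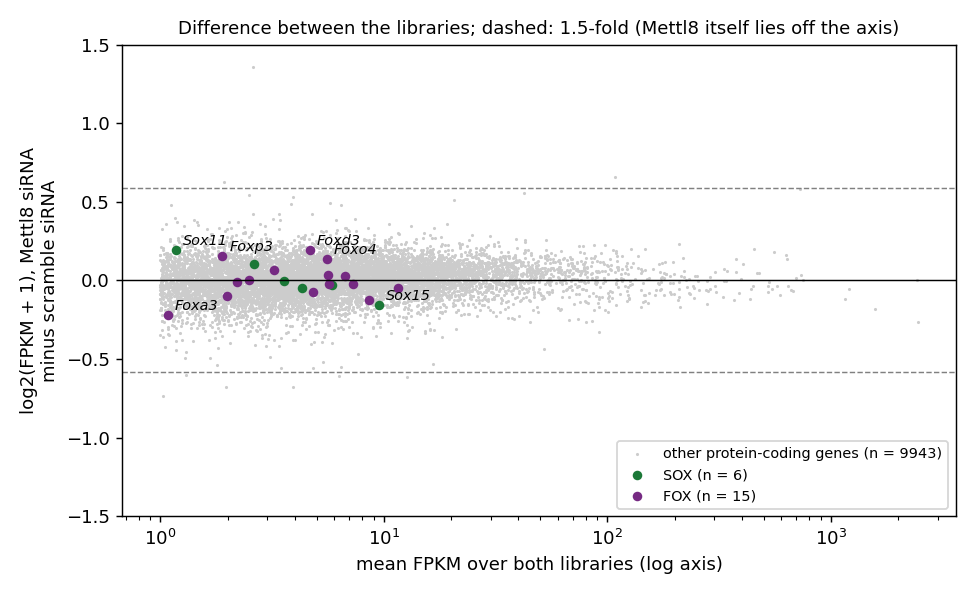
Difference in log2(FPKM + 1), library labelled Mettl8 siRNA minus library labelled scramble siRNA, against the mean FPKM on a log axis, for expressed SOX genes (green), FOX genes (purple) and all other protein-coding genes (grey); dashed lines mark 1.5-fold. All 21 colored points lie between -0.22 and 0.19, inside the grey cloud.

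GATA genes were all below 1 FPKM. Gata4, of endoderm and heart, had 0.55 FPKM in the library labelled Mettl8 siRNA and 0.47 FPKM in the library labelled scramble siRNA, on 60 and 52 reads. Gata1, of red blood cells, had 0.32 and 0.40 FPKM, Gata2, of blood stem cells, 0.23 and 0.21 FPKM, and Gata3, of trophoblast and T cells, 0.18 and 0.16 FPKM. Gata6 had 0.10 and 0.07 FPKM and Gata5 had 0.02 and 0.03 FPKM. None of these genes had a counting interval of the ratio that leaves out 1. Of 12 GATA cofactors, 5 were expressed, 3 higher and 2 lower, median 0.027. These were chromatin and adaptor genes used in many cells, with Chd4 at -0.15 (23.8 and 26.5 FPKM) and Lmo4 at 0.11 (1.62 and 1.42 FPKM), while the blood adaptor Lmo2 had 0.10 and 0.15 FPKM. Of 10 primitive endoderm markers, 3 were expressed, the matrix protein genes Sparc, Lama1 and Col4a1. Another 3 were near zero, among them Pdgfra at 0.06 FPKM in both libraries. The others were low: Hnf4a at 0.36 and 0.49 FPKM, Dab2 at 0.25 and 0.22 FPKM, Amn at 0.11 and 0.29 FPKM and Apoa1 at 0.09 and 0.17 FPKM.

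Tbx6 had the highest level of the 12 TBX genes and stayed below 1 FPKM. It had 0.86 FPKM in the library labelled Mettl8 siRNA and 0.55 FPKM in the library labelled scramble siRNA, on 43 and 28 reads, a ratio of 1.57 (0.954 to 2.63), whose interval is 1.02 to 2.80 when each library is rescaled to the same FPKM sum. Tbx4, of the hindlimb, had 0.24 and 0.25 FPKM, Tbx15 had 0.17 and 0.11 FPKM, Tbx10 had 0.10 and 0.14 FPKM, and Tbx21, the T-bet gene of T helper cells, had 0.13 and 0.07 FPKM. The heart genes Tbx5, at 0.04 and 0.02 FPKM, and Tbx20, at 0.08 and 0.10 FPKM, were near zero, as was Tbx1, of the pharyngeal arches, at 0 and 0.02 FPKM. Among T-box genes with other symbols, Mga, which pairs with MAX, had 10.6 and 9.98 FPKM, Eomes 0.77 and 0.74 FPKM, the primitive streak gene T 0.17 and 0.08 FPKM, and Tbr1 0.03 and 0.02 FPKM. That list of 5, with Tbx3, had 2 expressed genes, 1 higher and 1 lower.

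The remaining low FOX genes were Foxr1 (0.60 FPKM in the library labelled Mettl8 siRNA and 0.78 FPKM in the library labelled scramble siRNA), Foxi3 of the placodes (0.59 and 0.66 FPKM), Foxn4 of the retina (0.68 and 0.50 FPKM), Foxr2 (0.48 and 0.28 FPKM), Foxa1 (0.11 and 0.15 FPKM) and the thymus gene Foxn1 (0.11 and 0.09 FPKM). Over the 24 low members, 12 were higher, 10 lower and 2 equal. A ratio of at least 1.5-fold was found higher for 5 of 24, against 10.4% of low protein-coding genes, and lower for 1 of 24, against 9.65%. The 5 were Tbx6, Tbx15, Tbx21, Foxr2 and Sox7, and the other was Sox18. They rest on few reads, the low members having a median of 46.5 reads, both libraries added, and 64 for low protein-coding genes. Foxr2, on 43 and 26 reads, was the only low member of 24 whose counting interval left out 1 (ratio 1.69, 1.02 to 2.87). How many low protein-coding genes have such an interval was not counted, so this does not set Foxr2 apart.

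Near-zero members had more reads in sum in the library labelled Mettl8 siRNA, as did near-zero protein-coding genes. The 35 near-zero members held 158 reads in the library labelled Mettl8 siRNA and 114 in the library labelled scramble siRNA, with 17 higher, 12 lower and 6 equal. All 7556 near-zero protein-coding genes held 20268 and 15752 reads, with 3076 higher and 1448 lower. What this shift comes from was not tested. Among the members it was uneven: near-zero TBX genes held 55 and 56 reads, and without Sox5 and Sox6, left out after seeing the data, the other 33 genes held 117 and 102 reads. Foxa2, an endoderm factor, had 0.14 FPKM in the library labelled Mettl8 siRNA and 0.01 FPKM in the library labelled scramble siRNA, on 9 reads and 1 read, a ratio of 9.21 (1.28 to 404). Sox6 had 25 and 8 reads, a ratio of 3.20 (1.4 to 8.20), and Sox5 had 16 and 4 reads, a ratio of 4.09 (1.32 to 16.8). For these long genes, the rounding of FPKM leaves the reads uncertain by up to 2.11 and 2.05, so the ratios are rough.

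Markers of other cell types gave these values beside them. Of 4 definitive endoderm markers, 1 was expressed, Hhex, at 1.39 FPKM in the library labelled Mettl8 siRNA and 1.58 FPKM in the library labelled scramble siRNA. Of 10 mesoderm and heart markers, 2 were expressed, Pecam1 (5.47 and 5.14 FPKM) and Myl7 (1.16 and 0.95 FPKM). Of 7 neural and neural crest markers, 3 were expressed, Tubb3 at 17.9 FPKM in both libraries, Nes (1.21 and 1.06 FPKM) and Pax6 (1.27 and 1.06 FPKM). Of 8 SOX partners, 6 were expressed, 3 higher and 3 lower, median 0.020 and the largest differences for Sox2 and Pax6, at -0.14 and 0.14. Of 6 Groucho family genes in the table, Aes among them, 5 were expressed, 4 higher and 1 lower, median 0.036, Tle3 at -0.12 and Tle1 at 0.065.

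Some near-zero FOX genes were neighbours. Of the FOX genes, 8 lie within 500 kb of another FOX gene, and all 8 were near zero, with a mean of at most 0.04 FPKM. They form only 3 clusters, so they are not 8 separate loci. Of all 44 FOX genes, 20 (45.5%) were near zero, these 8 among them. Foxf1 had 0 and 0.03 FPKM in the libraries labelled Mettl8 siRNA and scramble siRNA, Foxc2 0.03 and 0.04 FPKM, and Foxc1 0.01 and 0.02 FPKM. Foxf1, Foxc2 and Foxl1, genes of mesoderm and vessels, lie on chromosome 8, Foxq1, Foxf2 and Foxc1 on chromosome 13, and Foxd2 and the lens gene Foxe3 on chromosome 4. Over all 4 families 12 genes lie that close to another member and 9 of them were near zero, the others being low Tbx4 beside near-zero Tbx2, and expressed Foxp3 beside low Gata1. Others near zero and outside these clusters included Foxb1, Foxb2, Foxe1 of the thyroid, Foxi1, Foxi2, Foxl2 of the ovary and Foxs1, each at 0.05 FPKM or less in both libraries. The TBX genes Tbx2, Tbx18, Tbx19 and Tbx22 were near zero too, at 0.09 FPKM or less. Foxb1, Foxd4, Foxl1 and Foxl2 were listed at 0 in both libraries; a count of 0 allows up to 3 reads, which is 0.0353 to 0.0869 FPKM for these 4 genes.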

How the data were processed

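RNA of E14 cells was sequenced in 1 library per group. The deposited values are FPKM computed by the authors, rounded to 2 decimals, with a gene length per gene; per the submitters' processing notes, STAR 2.4.0i, featureCounts 1.5.0-p1 and the mm10 build were used. Not given in the sources used here: annotation, strand setting and the handling of reads with several hits. GENCODE M21, whose GRCm38 assembly is that of mm10, gave gene types, positions and overlaps. It held all 80 members, and the exon union equalled the deposited length for 66, so levels of the others rest on another length. Of the 80, 24 share exon bases with another gene.

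Reads were rebuilt from the FPKM steps: for genes under 400 bases and values under 30 reads, 100% of 3563 values in the library labelled Mettl8 siRNA and of 3121 in the library labelled scramble siRNA were whole within the rounding plus 0.005 reads, at denominators of 27.8 and 28.5 M reads. Ratios are of reads divided by these denominators, with Clopper-Pearson intervals at 95%. These intervals cover counting error only. The share of all genes whose interval leaves out 1 was not counted, so such an interval does not set a member apart from other genes. Differences are log2(FPKM + 1), Mettl8 siRNA minus scramble siRNA, which shrinks differences between low values. With 1 library per group no test was made. Members, gene lists and thresholds were chosen with earlier results of these data known. Every member with a mean of at least 1 FPKM is named with its values, others at a mean of at least 0.3 FPKM or as lineage factors, and from each list up to 2 genes with the largest difference. Alternatives covered the pseudocount (0.1), the scaling and the filter. The steps were tested on simulated data. Python 3.11.15, pandas 2.3.3, numpy 2.4.6 and scipy 1.17.1 were used. The values of 1 near-zero member are not reported here. Promoter sequences are from RefSeq, GRCm38.p6.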

Additional observations from a re-analysis of the deposited data

How the results depend on the processing

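The count of 21 expressed members was 27 at 0.5 FPKM, 17 at 2 FPKM and 20 at 1 FPKM in each library, where Foxa3 is lost, and 40 at 1 TPM over protein-coding genes. The counts of 0 members 1.5-fold or 2-fold apart stayed at 0 under 5 alternatives of pseudocount, scaling and filter, as did those of the gene lists, and 2 of 21 were 1.2-fold apart by the ratio of reads, a setting added after the data were seen. Without a filter, the pseudocount of 1 keeps near-zero members, and the lowest of the low members, from reaching 1.5-fold. Foxa2, at a ratio of 9.21, differed by only 0.17, so for such genes the 0 was fixed in advance. The median difference of the members, -0.0090, was 0.060 after scaling both libraries to 1 FPKM sum, -0.020 with the median ratio of protein-coding genes set to 0, 0 without a filter and -0.024 at a mean of at least 5 FPKM, where 9 members remain. Under the rescaling 17 of 21 members were higher and 4 lower, the median of protein-coding genes was 0.090, and 8 of 21 members changed sign, each inside its counting interval; with the median ratio set to 0, 1 of 21 changed sign. The direction of those members thus depends on the scaling. The FPKM sum used for it covers all genes and is lower in the library labelled Mettl8 siRNA (584527 against 623735). The sum over protein-coding genes is higher there (144041 against 142874), so the rescaling does not even out the protein-coding genes. The medians of all 8 gene lists moved up under the same rescaling, and those of the FOXK partners, the FOXO regulators and targets and the T-box genes with other symbols turned from below 0 to above it, at 0.078, 0.077 and 0.051. The median over all expressed genes moved up as well, from 0.013 to 0.089. No paired analysis was possible because each group has 1 library. Depth limits the low and near-zero genes: culture-to-culture variation was not measured.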
